A study of Caenorhabditis elegans with 2 samples.

Results

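Heterochronic genes set the order and timing of stage-specific cell divisions in the larvae of Caenorhabditis elegans, and 8 protein-coding genes of that pathway were examined here for regions recovered with SPR-1. The 8 genes are lin-14, lin-28, hbl-1, lin-46, lin-66, lin-41, lin-42 and lin-29, taken as a named list out of 19973 nuclear protein-coding genes in the Ensembl WBcel235 annotation. The data are chromatin immunoprecipitation with sequencing (ChIP-seq) from 1 group of 2 biological replicates. The worms were strain OP521, which carries the mutation unc-119(tm4063) and the integrated transgene wgIs521, and they express SPR-1 with a C-terminal GFP and FLAG tag. Whole hermaphrodites were taken as L4 larvae, 50 hours after release from starvation as L1 larvae, and precipitated with an antibody to GFP. Because whole animals were used, regions recovered in a few cells and regions recovered weakly in many cells cannot be told apart. No untagged or untreated group was analysed here, so every comparison sets these genes beside other genes or regions of the same lists.

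SPR-1 is the worm counterpart of CoREST, a corepressor that joins the histone demethylase LSD1 to histone deacetylases. In the heterochronic pathway, early factors such as LIN-14, LIN-28 and HBL-1 hold cells in early larval fates. MicroRNAs of the lin-4 and let-7 families then lower them, LIN-41 falls in turn, and the transcription factor LIN-29 starts the adult programme of the skin. The L4 stage sampled here comes late in this sequence, after lin-14 and lin-28 have been lowered and before the last moult.

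Of the 8 genes, 6 had a thresholded summit within 2000 bp upstream of the gene or in its body, and these were lin-14, lin-28, lin-29, lin-42, lin-46 and lin-66. The transcription factor gene hbl-1 and the RNA regulator gene lin-41 had none. Across all protein-coding genes the same window held a thresholded summit in 1749 of 19973 (8.76%). The windows of the 8 genes ran from 3.88 kb (lin-46) to 22.3 kb (lin-14), and longer windows hold more summits. Among the 1510 protein-coding genes whose window was at least 10 kb, 254 (16.8%) had a thresholded summit, beside 3 of 3 for lin-14, lin-29 and lin-42, the heterochronic genes of that length. Of the 5 with shorter windows, 3 had one, beside 8.76% of genes of any window length. The one of lin-46 lay 34 bp from the start of another gene, R186.8. These counts are a description, since the genes were proposed with results of these data known, and no test was run on them.

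**Figure D1:**
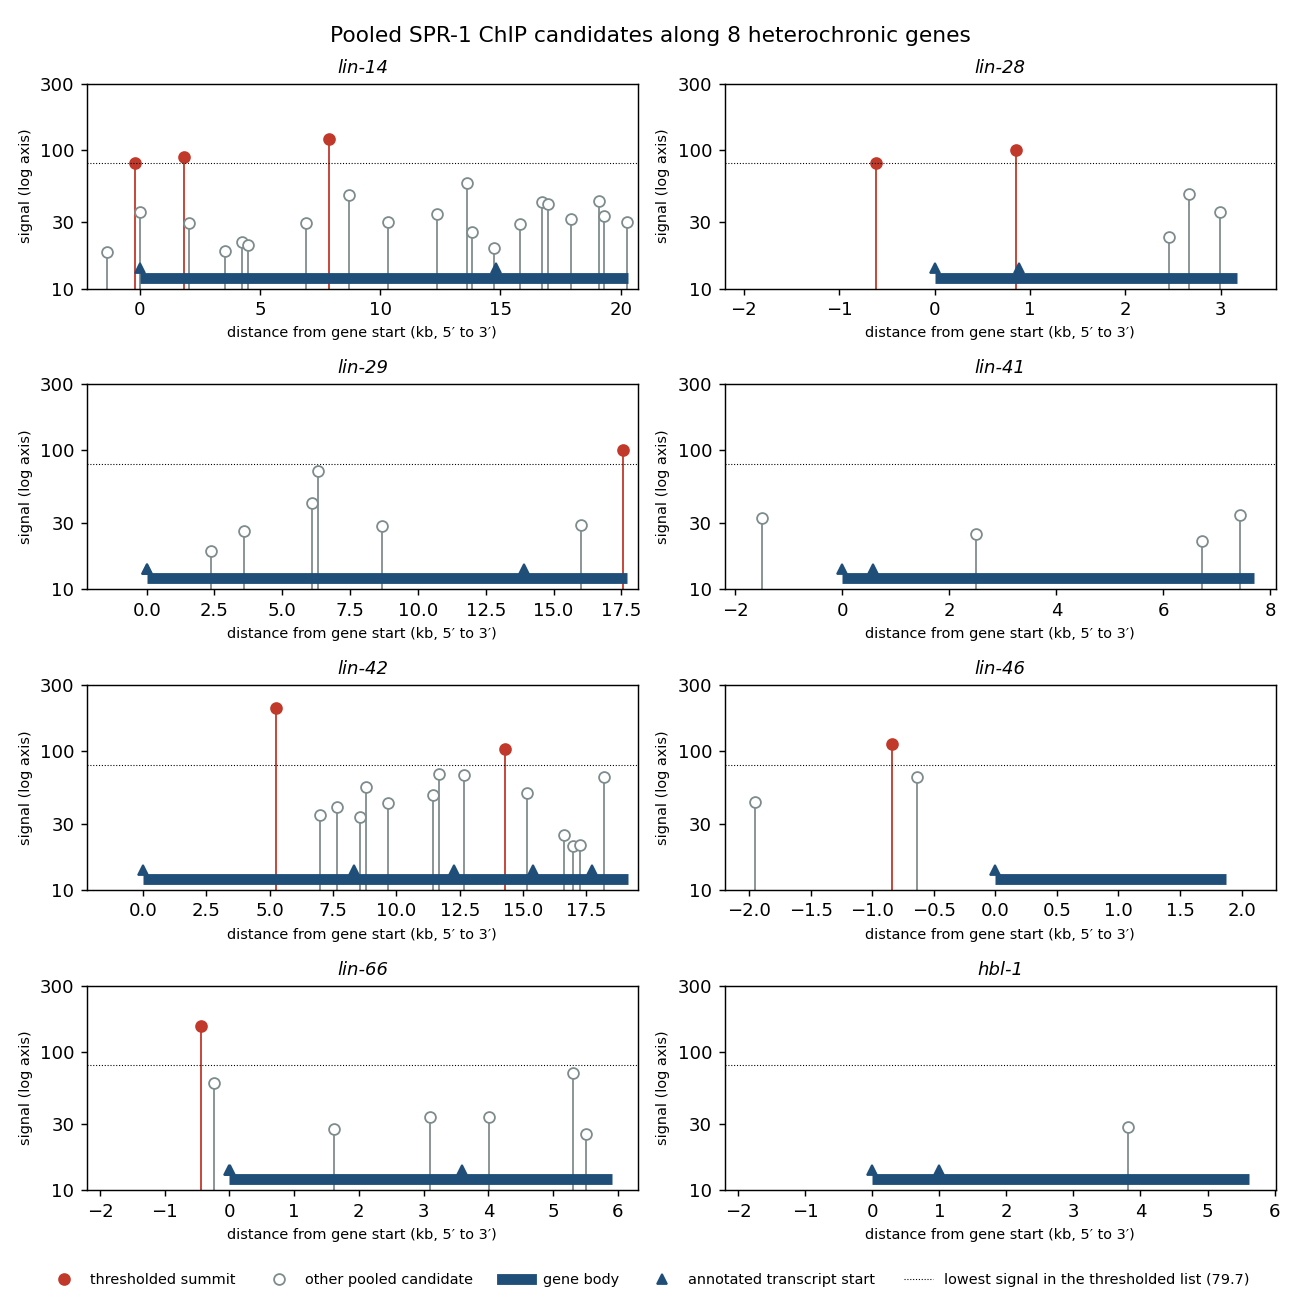
Each panel shows 1 gene, with the distance of candidate summits from the annotated gene start in kb on the x axis and the deposited signal of the pooled list on a log y axis. Filled points are thresholded summits, open points are other pooled candidates, the bar is the gene body, triangles are annotated transcript starts, and the dotted line is the lowest signal of the thresholded list (79.7). The 10 filled points fall in 6 panels, lin-14 and lin-42 carry rows of candidates along their bodies, and hbl-1 has a single open point.

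In all, 65 pooled candidate regions had their summit in the 8 windows, of which 10 were in the thresholded list (15.4%). Over all 29977 nuclear candidates the share was 1663 (5.55%). Many of the 65 lay about 200 bp from a neighbour with overlapping intervals, so they formed 49 separate stretches. Merged in that way, which was chosen after seeing the data, 10 of 49 stretches (20.4%) held a thresholded line, against 6.45% of 24109 stretches genome-wide. Every one of the 8 genes had at least 1 candidate, where 61.2% of all protein-coding genes did. Longer windows more often hold one, and among genes with a window of at least 10 kb only 11.7% had none. The signal is the authors' own value per region, whose scale the sources used here do not state, and read depth is unknown. The 10 thresholded summits had signals from 80.1 to 204, with a median of 102. The median of all nuclear thresholded summits was 114. The other 55 candidates had signals from 18.4 to 71.5.

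The sequences around 7 of the 10 thresholded summits are shown because their composition and short words are described further on. They are read 5′ to 3′ on the strand of the gene from ce11 (WBcel235), with 50 bp on either side of the summit. The lin-46 stretch was shortened to 84 bases where an untranslated region of a neighbouring gene begins, and the lin-29 summit lies in an untranslated region and is not shown. Capitals mark GAGAGA or its reverse complement TCTCTC and GGGCGG or its reverse complement CCGCCC.
lin-14, 209 bp upstream, chrX:11465301-11465401, plus strand: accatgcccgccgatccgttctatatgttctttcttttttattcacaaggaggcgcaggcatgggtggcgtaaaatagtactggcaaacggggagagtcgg
lin-14, 1839 bp into the gene, chrX:11467349-11467449, plus strand: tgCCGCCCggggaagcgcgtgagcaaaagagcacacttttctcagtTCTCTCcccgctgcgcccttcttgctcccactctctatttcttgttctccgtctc
lin-14, 7882 bp into the gene, chrX:11473392-11473492, plus strand: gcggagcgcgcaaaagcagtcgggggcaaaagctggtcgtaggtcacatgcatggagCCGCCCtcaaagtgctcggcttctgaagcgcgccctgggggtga
lin-42, 5259 bp into the gene, chrII:1247050-1247150, minus strand: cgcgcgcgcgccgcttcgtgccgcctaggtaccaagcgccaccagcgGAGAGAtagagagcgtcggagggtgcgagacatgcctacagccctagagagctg
lin-42, 14270 bp into the gene, chrII:1238039-1238139, minus strand: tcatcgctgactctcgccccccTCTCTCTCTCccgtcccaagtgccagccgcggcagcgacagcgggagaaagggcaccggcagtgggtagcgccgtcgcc
lin-46, 839 bp upstream, chrV:12967983-12968066, plus strand: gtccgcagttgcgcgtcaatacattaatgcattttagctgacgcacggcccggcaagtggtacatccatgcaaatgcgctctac
lin-66, 444 bp upstream, chrIV:13887585-13887685, plus strand: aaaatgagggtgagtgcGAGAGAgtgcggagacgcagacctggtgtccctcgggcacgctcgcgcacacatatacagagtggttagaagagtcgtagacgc

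The early-acting gene lin-14 (WBGene00003003, X 11465560 to 11485871, plus strand) encodes a nuclear protein that specifies first-stage fates and is the best-known target of the lin-4 microRNA. It had the most candidates of the 8 genes. The pooled list held 23, while replicate 1 alone held 14 and replicate 2 alone held 22. Its density of 1.03 candidates per kb of window was above that of 94.7% of protein-coding genes. Of the 23, 3 were upstream, 17 were in introns and 3 were in the 3′ untranslated region. Of these 23, 3 reached the thresholded list.

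The strongest lin-14 summit, at X 11473442, lay 7882 bp into the gene in intron 3 of transcript T25C12.1a.1, which is 11174 bp long. Its pooled signal was 121 at rank 767, counted from the highest signal of the list. Replicate 1 placed its counterpart at rank 793 and replicate 2 at rank 924, with summits 10 bp and 0 bp away. The summit at X 11467399, 1839 bp into the gene in intron 1, had a signal of 89.4 and rank 1326, and replicates 1 and 2 ranked it 1058 and 2722. The promoter summit at X 11465351, 209 bp upstream of the annotated start, had a signal of 80.1 and rank 1677, close to the bottom of the 1686 thresholded lines. Replicate 1 had a region at rank 1269 with its summit 103 bp away, and replicate 2 ranked it 2070, with its summit 15 bp away. That replicate 1 summit was 102 bp from another pooled candidate, 4 bp upstream of the start, with a signal of 35.8 at rank 8517. Which of the 2 candidates the replicate 1 region matches cannot be told apart. Of these 3 summits, only the one in intron 3 was among the 1686 strongest regions of both replicates. The start of the shorter transcript, T25C12.1b.1, had 1 candidate within 500 bp, with a signal of 19.4.

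The 3 thresholded lin-14 summits each lay within 200 bp of an annotated non-coding RNA gene. The intron 1 summit was inside T25C12.7, which is on the opposite strand, the promoter summit was 20 bp from T25C12.9, and the intron 3 summit was 140 bp from T25C12.6. The other 20 lin-14 candidates had signals no higher than 57.7. That value belonged to a candidate 13623 bp into the gene, at rank 3102. The nearest start of another protein-coding gene was that of F48C5.2, 11020 bp from the promoter summit.

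The gene lin-28 (WBGene00003014, I 8407630 to 8410804, minus strand) encodes an RNA-binding protein that blocks maturation of let-7 and maintains second-stage fates. It had 5 pooled candidates in a window of 5.17 kb, or 0.966 per kb, and 2 of them were thresholded. The stronger, at I 8409955, had a signal of 100.3 and rank 1084. It lay in intron 1 of the longer transcript, 35 bp upstream of the start of the shorter transcript F02E9.2b.1. Replicates 1 and 2 ranked it 1264 and 1052, with summits 4 bp and 10 bp away. The second, at I 8411417, lay 613 bp upstream of the gene with a signal of 80.6 at rank 1655. Replicate 1 ranked it 2502, below its 1686 strongest, and replicate 2 ranked it 1304. The nearest other gene start was that of F02E9.7, 1005 bp from that summit. The annotated start of the longer transcript itself had no candidate within 500 bp.

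The 3 remaining lin-28 candidates lay in a coding exon (signal 23.5) and in the 3′ untranslated region (signals 48.0 and 35.7). All 3 were nearer to the start of F02E9.1, at 1519, 1307 and 978 bp in that order, than to a start of lin-28.

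The hunchback-like gene hbl-1 (WBGene00001824, X 5822142 to 5827755, plus strand) encodes a zinc finger transcription factor of second-stage fates. It had the fewest candidates. The pooled list held 1, at X 5825955 in a 48 bp intron 3813 bp into the gene, with a signal of 28.8 at rank 13458. Replicate 1 held 2 candidates in the window, the stronger at rank 13666, and replicate 2 held 0. No candidate of the pooled list lay in the 2000 bp upstream or within 500 bp of either annotated transcript start. The stretch without a candidate ran for 5813 bp, from the upstream end of the window to the summit. Its density of 0.131 candidates per kb was below the median of 0.246 per kb. It was above that of 40.7% of protein-coding genes, but 38.8% of those genes had no candidate at all. Among genes with a window of at least 10 kb, longer than that of hbl-1, it was above 25.2%. The 2 genes on X, lin-14 and hbl-1, were at opposite ends of the order by density.

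The gene lin-46 (WBGene00003031, V 12968855 to 12970730, plus strand) encodes a gephyrin-related protein that acts downstream of LIN-28 and limits HBL-1. All 3 of its candidates were upstream and none was in its body. The thresholded summit at V 12968016, 839 bp upstream, had a signal of 112 and rank 891, and replicates 1 and 2 ranked it 1328 and 857. Its summits in the replicates lay 1 bp and 9 bp away. That summit was 34 bp from the start of R186.8, a protein-coding gene on the opposite strand, and which of the 2 genes it belongs to cannot be told apart. A second candidate, 637 bp upstream of lin-46, had a signal of 64.9 at rank 2466. Its replicate ranks differed widely, at 25930 in replicate 1 and 1460 in replicate 2. The third, 1951 bp upstream with a signal of 43.3, lay in the body of R186.3.

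The gene lin-66 (WBGene00001562, IV 13888079 to 13893986, plus strand) encodes a protein that lowers lin-28 expression through the 3′ untranslated region of its transcript. It had the second strongest summit of the 8 genes. The summit at IV 13887635, 444 bp upstream of the gene, had a signal of 154 and rank 476. Replicate 1 ranked it 518 and replicate 2 ranked it 408, with summits 40 bp and 3 bp away. The nearest other gene start, that of thoc-7, was 3665 bp away. Of the 7 pooled candidates of lin-66, another at 244 bp upstream had a signal of 59.2. A candidate in the 3′ untranslated region, 5301 bp into the gene, had a signal of 70.0 at rank 2135, below the thresholded list. Replicate 1 ranked that one 1382, inside its 1686 strongest, and replicate 2 ranked it 4649.

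The gene lin-41 (WBGene00003026, I 9334800 to 9342496, minus strand) encodes an RNA-binding TRIM-NHL protein, a major target of let-7 that holds back lin-29. It had 4 pooled candidates, none of them thresholded, with signals from 22.1 to 34.3 at ranks from 9294 to 21802. The strongest lay in the 3′ untranslated region, 7424 bp into the gene, at rank 11066 in replicate 1 and 16198 in replicate 2. The candidate 1506 bp upstream had a signal of 32.5 and overlapped a region of replicate 2 at rank 7288 and none of replicate 1. Neither of the 2 annotated starts had a candidate within 500 bp. A density of 0.412 per kb was nonetheless above that of 67.4% of protein-coding genes.

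The gene lin-42 (WBGene00018572, II 1233236 to 1252359, minus strand) is the worm relative of Period, encodes a repressor whose expression cycles with the moults, and has transcripts from 5 starts. It held the strongest summit of the 8 genes. That summit, at II 1247100 in the 8173 bp first intron of transcript F47F6.1d.1 and 5259 bp into the gene, had a signal of 204 and rank 261. The replicates ranked it 316 and 207, with summits 36 bp and 13 bp away. Its interval was 139 bp wide, where the median candidate was 460 bp, and it lay inside the non-coding RNA gene F47F6.15. The start of the next transcript downstream, F47F6.1b.1, was 3065 bp from it.

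The second thresholded summit of lin-42, at II 1238089 in intron 6, had a signal of 103 at rank 1035, with ranks of 1013 and 1180 in replicates 1 and 2. It lay 1120 bp upstream of the start of the short transcript F47F6.1a.1. Between and beyond these summits lin-42 had 13 other candidates, and 3 of them had signals of 67.9, 67.4 and 65.5, ranks 2271 to 2420. The candidate with a signal of 67.4 lay 404 bp from the start of F47F6.1e.1, and the one with 65.5 lay 439 bp from that of F47F6.1g.1. In contrast, the start of the longest transcripts had no pooled candidate, from 2000 bp upstream of it to 5259 bp into the gene. All 15 lin-42 candidates lay at or beyond that position, and the 4 other transcript starts of the gene also lie beyond it.

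The gene lin-29 (WBGene00003015, II 11917642 to 11935343, minus strand) encodes the zinc finger transcription factor at the end of the pathway, which drives the larval-to-adult switch of the skin. It had 7 candidates in 19.7 kb, or 0.355 per kb, and none of them was upstream. Its thresholded summit, at II 11917780, lay in the 3′ untranslated region, 17563 bp from the gene start, with a signal of 100.5 at rank 1078. The neighbouring gene hmg-12 runs towards lin-29 and ends there, and its start was 1267 bp from the summit, nearer than any start of lin-29. Replicate 1 ranked the region 799 and replicate 2 ranked it 2344, with summits 2 bp and 75 bp away. With replicate 2 alone, lin-29 had no region among the 1686 strongest. The next candidate of lin-29, 6303 bp into the gene in an intron of 10530 bp, was the strongest of the 55 that missed the thresholded list. Its signal was 71.5 and its rank 2073, with ranks of 1975 and 3064 in the replicates, and it lay inside the non-coding RNA gene Y17G7A.4.

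The replicates held a counterpart of each of the 10 thresholded summits, overlapping by at least 1 bp, as they did for 99.8% of all 1663 nuclear thresholded summits. The thresholded list was itself derived from both replicates, so this overlap is not independent support. The median distance between summits was 11 bp in replicate 1 and 9.50 bp in replicate 2. Of the 10, 9 were among the 1686 strongest of replicate 1, 7 among those of replicate 2, and 6 among both. For all nuclear thresholded summits these shares were 83.0% in replicate 1, 79.0% in replicate 2 and 64.9% in both, close to those of the 10. The 6 belonged to lin-14, lin-28, lin-42 (2 summits), lin-46 and lin-66. The 9 of replicate 1 include the lin-14 promoter summit, whose region there was about as near to another pooled candidate. Over all 65 candidates, 50 (76.9%) overlapped a candidate of each replicate, against 48.7% of all nuclear candidates. The 65 were also stronger, with a median rank of 9103 against 15012, and a replicate region could be the counterpart of more than 1 candidate. Whether the shares differ among candidates of like rank was not tested. With summits required to lie within 100 bp, 35.4% of the 65 and 25% of all nuclear candidates had a counterpart in each replicate.

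**Figure D2:**
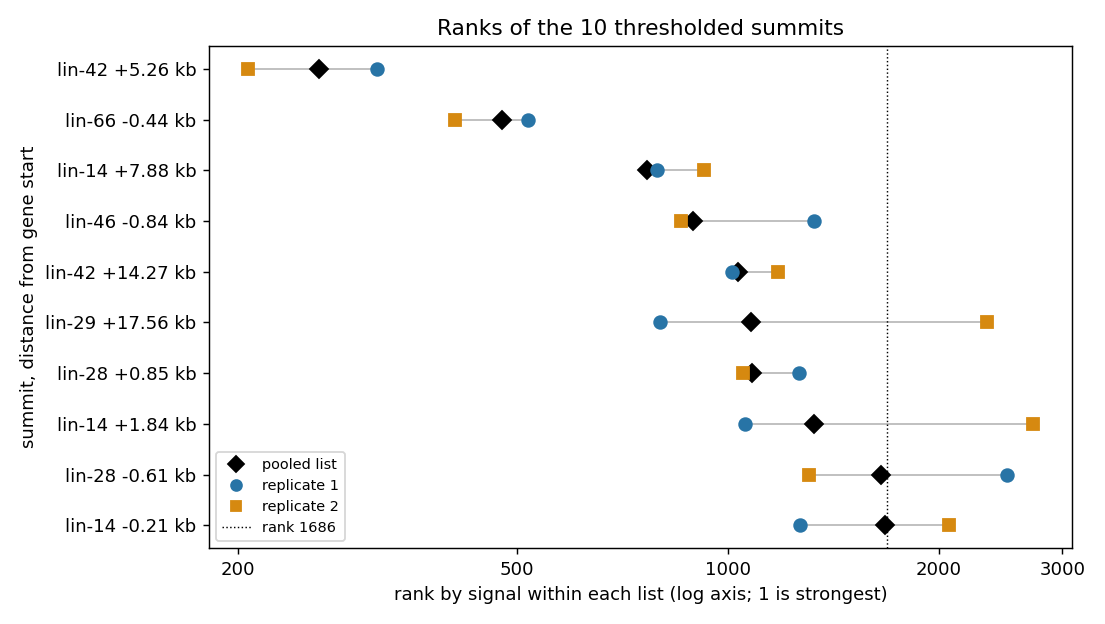
The x axis gives the rank by signal within the pooled list (diamonds), replicate 1 (circles) and replicate 2 (squares) on a log axis, with 1 row for each of the 10 thresholded summits. The dotted line is rank 1686, the length of the thresholded list. Of the 10, the lin-42 summit 5259 bp into the gene and the lin-66 upstream summit have the best ranks in all 3 lists. The lin-29 summit and the lin-14 summits at 1839 bp into the gene and 209 bp upstream lie past the line in replicate 2, and the lin-28 upstream summit does so in replicate 1.

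Candidates were denser in 7 of the 8 windows than in the median protein-coding window of 0.246 per kb. The 8 genes ranged from 0.131 per kb in hbl-1 to 1.03 per kb in lin-14, and the interquartile range of all 19973 genes was 0 to 0.529 per kb. Of the 8, lin-14, lin-28, lin-42, lin-46 and lin-66 were above that upper quartile. The pooled list holds background as well as candidate regions, and 5.55% of its nuclear lines were thresholded. Density thus counts mostly lines outside the thresholded list. Overlapping neighbours were counted separately, and merged they formed 17 stretches in lin-14, 3 in lin-28, 11 in lin-42, 2 in lin-46 and 5 in lin-66. All lin-46 candidates were nearer to a start of another gene. In the replicate lists the same 5 genes had from 0.615 to 1.01 per kb, and lin-29, lin-41 and hbl-1 had no more than 0.412. No density over all genes was computed for the replicate lists. The upstream parts of the 8 windows held 10 candidates in 16.0 kb (0.625 per kb), and the gene bodies held 55 in 81.4 kb (0.676 per kb).

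**Figure D3:**
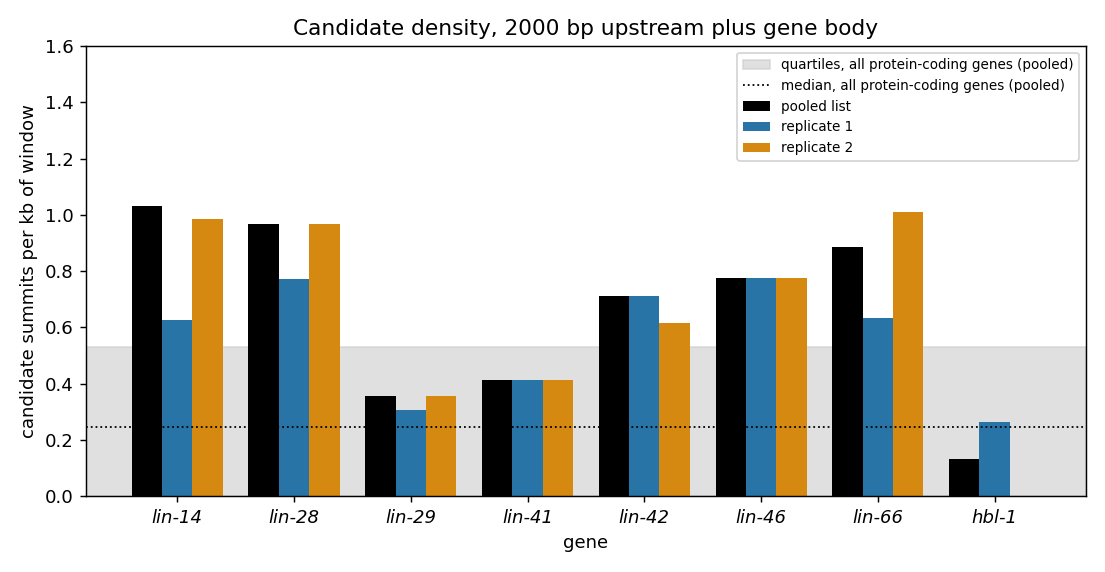
Bars give the number of candidate summits per kb of window for each gene in the pooled list, replicate 1 and replicate 2. The grey band runs from the lower to the upper quartile of all protein-coding genes in the pooled list, 0 to 0.529 per kb, and the dotted line is their median, 0.246 per kb. The bars of lin-14, lin-28, lin-42, lin-46 and lin-66 stand above the band in all 3 lists, and hbl-1 has no bar in replicate 2. No band was computed for the replicate lists, so their bars have no background of their own. The lists hold background as well as candidate regions, and overlapping neighbours are counted separately.

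Thresholded summits lay in the upstream part of 4 genes (lin-14, lin-28, lin-46 and lin-66) and in the body of 4 (lin-14, lin-28, lin-29 and lin-42). Of all protein-coding genes, 6.63% had one upstream and 2.50% had one in the body. The second share covers bodies of any length, and longer bodies hold more summits. The bodies of lin-14, lin-29 and lin-42 were 20312, 17702 and 19124 bp long, and no share for bodies of like length was computed. By place, 4 of the 10 summits were upstream, 5 were in introns and 1 was in a 3′ untranslated region. Within 500 bp of a start of the gene's own transcripts there were 3 of the 10, those of lin-14, lin-28 and lin-66. Counting the starts of any protein-coding gene, which adds the lin-46 summit, there were 4 of the 10 (40.0%), against 46.8% of all nuclear thresholded summits. Of the 10, 8 had a start of their own gene as the nearest protein-coding start, the exceptions being those of lin-29 and lin-46.

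None of the 65 candidates lay within 200 bp of a tRNA gene, a place that held 14.4% of all nuclear thresholded summits and 1.80% of all nuclear candidates. Genes annotated as ncRNA, of any length, were within 200 bp of 4 of the 10 thresholded summits (40.0%) and of 8 of the 65 candidates (12.3%). For all nuclear regions these shares were 23.9% of thresholded summits and 6.71% of candidates. This feature was chosen after the lin-14 and lin-42 positions were seen.

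The stretches around the summits were rich in G and C. The median GC content within 50 bp was 55.0% for the 10 thresholded summits, against 48.5% for all nuclear thresholded summits and 37.6% for all nuclear candidates. It ran from 36.6% at the lin-29 summit in the 3′ untranslated region to 70.3% at the lin-42 summit in intron 6. The word GAGAGA, read on either strand, was within 50 bp of 4 of the 10 summits, both of lin-42, the lin-66 promoter and the intron 1 summit of lin-14. That word was found at 21.9% of all nuclear thresholded summits and 9.49% of all nuclear candidates. In the lin-42 intron 6 stretch it matched 3 times in a row of alternating bases, and those matches overlap. The word GGGCGG was at 2 of the 10, both in lin-14, and at 6.49% of all nuclear thresholded summits. The GATA-type word TGATAA, the E-box CACGTG and the word TTTCNCTTT, which resembles sites of the timing factor BLMP-1, were at none of the 10. They were at 5.59%, 4.57% and 1.62% of all nuclear thresholded summits. These letters describe the windows and do not mark bound sites.

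Other genes that time larval development were also examined, from a list of 30 protein-coding genes of which 29 matched the annotation. A thresholded summit lay in the window of 13 (44.8%), beside 8.76% of all protein-coding genes, and 28 had a candidate. In the 8 of the 29 with a window of at least 10 kb it lay in 5, beside 16.8%. The TRIM-NHL gene nhl-2 (signal 445, rank 64, 847 bp upstream), a cofactor of microRNA silencing, had the strongest in its window. The GW182-type microRNA silencing genes ain-1 (signal 326, rank 93, 917 bp upstream) and ain-2 (signal 135, rank 610, 610 bp into the gene) also had one. So did the Argonaute gene alg-1 (signal 91.2, rank 1291, 1949 bp into the gene) and the Pumilio gene puf-9 (signal 270, rank 138, 276 bp upstream). The exonuclease gene xrn-2, which degrades mature microRNAs, had a signal of 152 at rank 491, 1218 bp upstream. For the timing genes named here and below, nearer starts of other genes and nearby tRNA genes were not recorded. A summit in their window may thus belong to another gene. The Argonaute gene alg-2 (strongest candidate 41.8, rank 6091) and the Dicer gene dcr-1 (strongest candidate 29.9, rank 12488), both named after their values were seen, had no thresholded summit.

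Among transcriptional and moulting regulators of that list, the nuclear receptor gene daf-12 had a thresholded summit with a signal of 162 (rank 421). The myelin regulatory factor genes myrf-1 and myrf-2 had signals of 158 (rank 453) and 85.9 (rank 1453). The kinase gene kin-20, a relative of the Period partner Doubletime, had 3 thresholded summits, the strongest at 148 (rank 508). The lin-29 cofactor gene mab-10 had a signal of 95.5 (rank 1184), the RNA-binding protein gene sea-2 had 92.6 (rank 1258) and lep-2 had 116 (rank 834, 715 bp upstream). The other 16 matched genes had no thresholded summit, and of these mab-3 had no candidate at all. The strongest candidates of the transcription factor genes blmp-1 and nhr-23 had signals of 66.1 and 60.9, and these genes too were named after their values were seen.

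The timing microRNA genes had thresholded summits at 3 of 5. Over all 261 annotated microRNA genes the same window held one in 37 (14.2%). The 3 timing genes were let-7 (strongest signal 162, rank 417, 1838 bp upstream), mir-241 (signal 147, rank 513, 487 bp upstream) and lin-4 (signal 124, rank 720, 417 bp upstream). The annotated let-7 gene is longer, with a window of 3.73 kb, and its distance is counted from the start of that gene. The windows of lin-4, mir-48, mir-84 and mir-241 were 2.08 to 2.10 kb. The let-7 family gene mir-48 had a candidate 155 bp upstream with a signal of 73.4 (rank 1979), and mir-84 had one with 40.5 (rank 6574). The long non-coding RNA gene lep-5, which acts in the timing of male tail maturation, had a thresholded summit with a signal of 123 (rank 729). It lay 1976 bp upstream, near the edge of the 2000 bp window, and no share over all non-coding RNA genes was computed.

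**Figure D4:**
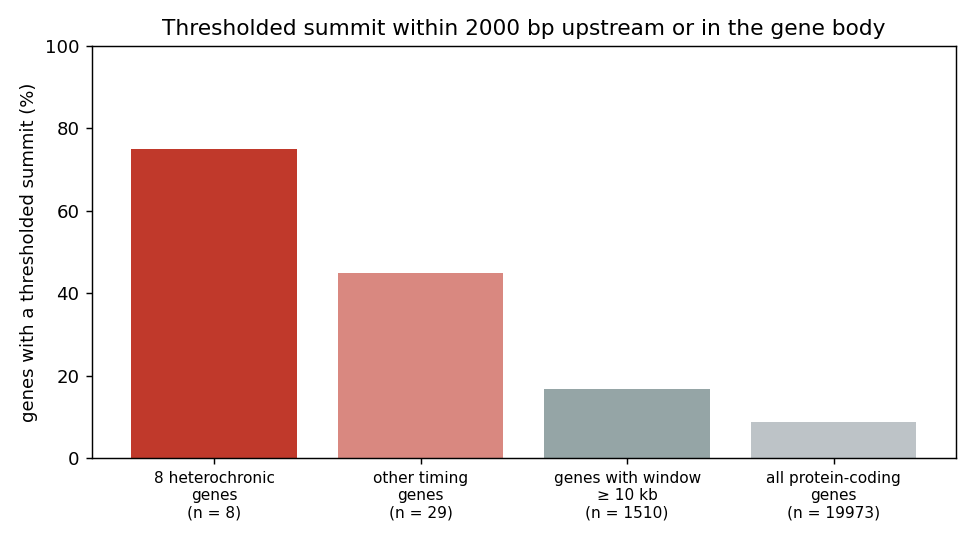
Bars give the percentage of genes with a thresholded summit within 2000 bp upstream or in the gene body, with the number of genes under each bar. The 8 heterochronic genes (75.0%) and 29 other timing genes (44.8%) stand left of all genes with a window of at least 10 kb (16.8%) and all protein-coding genes (8.76%). The first 2 bars are lists named with results of these data known, so their height is a description.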

How the data were processed

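The deposited lists hold regions with a signal value for each. Per the labels and the text listings deposited with the samples, they are candidate regions and background for each replicate and for both replicates together. A thresholded list from an analysis of the irreproducible discovery rate was also deposited, and all are on ce10 and ce11. No source used here states the peak caller, the threshold or the signal scale. The ce11 lists were used, with Ensembl release 115 genes and the RefSeq WBcel235 genome. The highest region end lay within each chromosome's length. The ce10 lists were not used here.

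Lists were ranked by signal, and signal was not compared between lists. A candidate belonged to a gene when its summit lay within 2000 bp upstream or in the gene body. Replicate counterparts overlapped by 1 bp or more, and the nearest summit was taken. Values are given in full for every thresholded summit and for the strongest candidates of each gene, and other genes of the pathway list are named when a thresholded summit was in their window. Scripts ran in Python 3.11.15 and were tested on simulated data. The members and lists were chosen with earlier results of these data known. No test was run, and alternatives covered window size, the threshold, replicates and gene assignment.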

Additional observations from a re-analysis of the deposited data

How the results depend on the processing

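No paired analysis was possible because the samples form 1 group. The count of 6 heterochronic genes with a thresholded summit stayed between 4 and 6 under the other alternatives, with 1 exception. It was 3 (lin-14, lin-42 and lin-66) with only the 843 strongest lines of the thresholded list, where 929 of all protein-coding genes had a summit. For all genes the count of 1749 became 500 with gene bodies only, 3136 with the list doubled to 3372 lines, and 1157 with only the nearest gene start, where 4 of the 8 genes kept a summit of their own. With replicate 1 or replicate 2 alone, 6 and 5 of the 8 had one of the 1686 strongest regions, beside 1766 and 1751 of all genes. Without summits within 200 bp of non-coding RNA genes, chosen after seeing the data, 5 of the 8 had one, beside 1394 of all genes (6.98%). The gene that dropped out was lin-14, whose thresholded summits all lay that near to such genes.

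The 50 candidates with counterparts in both replicates became 23 with summits within 100 bp. The thresholded share of 15.4% became 29.2% with the doubled list, beside 11.2% of all candidates, and 4.62% with the shortened list, beside 2.74%. The strongest rank of each gene in the replicates alone ran from 793 to 924 for lin-14, 1052 to 1264 for lin-28, 799 to 2344 for lin-29, 7288 to 11066 for lin-41, 207 to 316 for lin-42, 857 to 1328 for lin-46 and 408 to 518 for lin-66. For hbl-1 it was 13666 in replicate 1, and 13435 in the pooled list without mitochondrial lines. Read depth is unknown, so a missing candidate cannot be told apart from one too weak to be listed.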
